A study of Mus musculus with 8 samples.

Results

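Genes whose products build ribosomes in the nucleolus were followed through 4 deposited comparisons of newly made RNA in mouse embryonic stem cells with a mutant histone H3.3. The members were chosen by symbol: names beginning with Nop, Nol, Utp or Rrp and a digit, or with Polr1, and Rrn3, Ubtf, Ncl, Npm1, Fbl, Dkc1, Nhp2, Gar1, Bop1, Pes1, Wdr12, Ebna1bp2, Imp3, Imp4 and Nolc1. This gave 56 genes of 16896 in all. All 56 were listed in the comparison of dual-targeted lines with wildtype, and 55 in the comparison of single-targeted lines with wildtype, where Nol4 was not listed. Of the 56, Nol4 and Nol4l share the letters of the rule but are not known for ribosome biogenesis.

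The cells were ES-E14TG2a (E14), an embryonic stem cell line of male mouse origin, and H3.3 is the H3 variant that is laid down outside DNA replication, encoded by H3f3a and H3f3b. Dual-targeted lines carried the substitution K122A, lysine to alanine, in 3 of the 4 alleles. In this group 2 clones were H3f3a A/A H3f3b WT/A, here called the clones, and 1 line was H3f3a WT/A H3f3b A/A, here called the third line. Single-targeted lines carried 2 mutant alleles, as H3f3a A/A H3f3b WT/WT in 1 line and as H3f3a WT/WT H3f3b A/A in the other. Wildtype cells were profiled as 3 biological replicates. The labels describe medium with LIF and with LIF plus inhibitors of GSK and MEK, and do not say which of them fed these cultures. The 5 mutant lines gave 1 library each, so the spread in a mutant group is one between lines. All 8 cultures received 4-thiouridine (4sU, 500 nM for 5 min), a uridine analogue taken up into RNA made during the pulse. That labelled RNA was pulled out and sequenced (TT-seq), so that a count reads recent transcription more than stored RNA. In such bulk samples, fewer cells of a type and less RNA per cell cannot be told apart.

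A ribosome begins with transcription of one long precursor RNA by RNA polymerase I in the nucleolus. Small nucleolar ribonucleoproteins (snoRNPs) modify that precursor, the box C/D class by methylating riboses and the box H/ACA class by making pseudouridines. A large early particle, the small-subunit processome, folds and cuts the part that becomes the small subunit, while a separate set of factors assembles the large subunit. Embryonic stem cells divide quickly and have prominent nucleoli, and MYC proteins are known activators of many of these genes.

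The promoters of 4 members are shown. Nhp2, Utp3 and Nop10 had the lowest adjusted p-values among members in dual-targeted lines. Utp4 was the sole member of 55 called in single-targeted lines. It was lower there, as were 1.47% of all genes, so that count lay near the background. Nhp2 lies on chromosome 11 (51619735 to 51623714, plus strand, GRCm38), Utp3 on chromosome 5 (88554462 to 88556090, plus), Nop10 on chromosome 2 (112261926 to 112263269, plus) and Utp4 on chromosome 8 (106893636 to 106923088, plus). Each window runs from 250 bases before to 50 bases after the RefSeq start (GRCm38.p6), 5′ to 3′ on the plus strand. The windows are chr11:51619523-51619822 for Nhp2, chr5:88554212-88554511 for Utp3, chr2:112261676-112261975 for Nop10 and chr8:106893390-106893689 for Utp4. Capitals mark CCGGAAG or its reverse complement CTTCCGG, a core that ETS family factors bind, and CACGTG, the E-box that MYC and related factors bind.
Nhp2: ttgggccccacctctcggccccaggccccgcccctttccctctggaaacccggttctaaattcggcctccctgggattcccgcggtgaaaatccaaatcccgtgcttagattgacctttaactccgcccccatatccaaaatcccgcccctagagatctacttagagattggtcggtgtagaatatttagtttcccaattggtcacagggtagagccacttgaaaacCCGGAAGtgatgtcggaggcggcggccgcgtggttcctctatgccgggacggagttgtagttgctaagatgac
Utp3: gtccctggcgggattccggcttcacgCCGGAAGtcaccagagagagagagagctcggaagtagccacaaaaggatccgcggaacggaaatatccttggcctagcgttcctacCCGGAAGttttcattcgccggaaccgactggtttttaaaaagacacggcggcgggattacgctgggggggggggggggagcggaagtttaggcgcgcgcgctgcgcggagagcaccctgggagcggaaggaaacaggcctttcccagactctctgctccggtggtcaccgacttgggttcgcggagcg
Nop10: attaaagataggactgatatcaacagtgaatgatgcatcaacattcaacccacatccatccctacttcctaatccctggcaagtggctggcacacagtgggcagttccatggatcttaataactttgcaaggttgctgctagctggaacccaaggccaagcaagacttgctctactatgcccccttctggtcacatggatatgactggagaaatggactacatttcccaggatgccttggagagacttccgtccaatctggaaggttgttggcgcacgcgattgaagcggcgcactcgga
Utp4: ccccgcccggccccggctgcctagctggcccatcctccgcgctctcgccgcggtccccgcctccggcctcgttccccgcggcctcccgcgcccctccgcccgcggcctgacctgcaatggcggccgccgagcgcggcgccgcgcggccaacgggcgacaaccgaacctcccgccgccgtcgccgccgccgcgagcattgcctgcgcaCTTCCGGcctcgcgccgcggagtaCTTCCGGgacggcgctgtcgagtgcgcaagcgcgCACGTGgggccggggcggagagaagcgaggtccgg

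In the Nhp2 window CCGGAAG lay 23 bases before the start, and in the Utp3 window it lay 224 and 138 bases before it. The Utp4 window held CTTCCGG 43 and 19 bases before the start and CACGTG 15 bases after it. The Nop10 window held none of the motifs searched. A RefSeq window was at hand for 46 of the 56 members. Searched on both strands, CCGGAAG was in the windows of 16 of these 46 members (34.8%), against 22.5% of 8323 genes counted at 50 or more on average and 9.93% of all 27025 genes with a window. CACGTG was in those of 11 members (23.9%), against 12.6% of genes counted at 50 or more on average and 8.09% of all genes. Of the 17 members with a window that were called higher in dual-targeted lines, 8 held CCGGAAG and 2 held CACGTG, and of the 29 others 8 and 9 did. The windows of Nolc1, Rrn3, Nop2, Gar1, Polr1c, Rrp15, Nol7 and Nol12 were among those with CCGGAAG, and those of Nop2, Rrn3, Pes1, Imp4 and Utp20 among those with CACGTG. AAGATGGCG, the core that YY1 binds, was in the window of Imp4 alone among members, and the BANP motif, a palindrome around CGCG, in that of Nol9 alone, against 4.25% and 1.42% of genes counted at 50 or more on average. The palindromic NRF1 motif was in no member's window, against 2.73% of those genes. No matches of different motifs overlapped in the members' windows. A match is a run of letters, and whether a factor bound there was not measured.

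The files hold the authors' results per gene and no value per library, so the depth of each library is unknown. The 6 embryonic stem cell markers had mean counts of 1803 to 4211 in the dual-targeted and wildtype table, while 4 of 6 fibroblast or feeder markers were not listed and the other 2 stood at 15.8 and 25.2. Endoderm markers stood at 8.04 to 13.9 (2 of 3 listed), trophectoderm markers at 29.7 to 32.7 (2 of 3) and neural markers at 45.5 to 162 (3 of 3). Some markers moved with the members: in dual-targeted lines Pou5f1 (0.75 ± 0.21, adjusted p = 0.00113), Nanog (0.49 ± 0.17, adjusted p = 0.0105), Sall4 (0.83 ± 0.19, adjusted p = 5.08e-05), the trophectoderm keratin Krt8 (2.21 ± 0.65, adjusted p = 6.22e-04) and the neural marker Nes (1.91 ± 0.85, adjusted p = 0.00802) were higher than in wildtype per the authors' deposited table. These were 3 of 6 embryonic stem cell, 1 of 2 trophectoderm and 1 of 3 neural markers listed, and none was called lower. The others of these lists went both ways without a call in the authors' deposited table. Esrrb (-0.22 ± 0.18, adjusted p = 0.343), Zfp42 (-0.20 ± 0.15, adjusted p = 0.317), Pax6 (-0.33 ± 0.24, adjusted p = 0.232) and Sox1 (-0.32 ± 0.37, adjusted p = 0.335) lay below 0. Sox2 (0.19 ± 0.19, adjusted p = 0.448) and Krt18 (0.26 ± 0.49, adjusted p = 0.168) lay above 0. The summed rebuilt level of the neural markers was 274 in the clones, 585 in the third line, 207 in single-targeted lines and 280 in wildtype, and that of Krt18, the sole trophectoderm marker with rebuilt means, was 14.2 in the clones, 115 in the third line, 13.2 in single-targeted lines and 11.5 in wildtype. The third line stood high in both sums, and in the neural sum this came from Nes. By rebuilt means, the other neural markers, Pax6 and Sox1, were not above wildtype in the clones, the third line or single-targeted lines. The neural sum thus does not show a rise shared by these markers. Nes alone had 114 in the clones, 387 in the third line, 56.04 in single-targeted lines and 37.7 in wildtype, so it was above wildtype in the clones too. The part of these markers in the members' values was not tested. A substitution need not change transcript level, so the targeted genes do not check the labels. In dual-targeted lines, H3f3a stood at 0.13 ± 0.19 (log2 fold change ± SE, adjusted p = 0.633) and H3f3b at 0.06 ± 0.36 (adjusted p = 0.8) per the authors' deposited table. Rebuilt means put H3f3b at 4852 in the clones, 362 in the third line and 2511 in wildtype, so the lines of the dual-targeted group stood apart from each other at this gene.

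Levels in each group were rebuilt by subtraction from the mean normalized counts of the 4 tables. They are means without an error, for the clones (2 libraries), the third line (1), the single-targeted lines (2) and wildtype (3). They rest on scaling the tables so that the median gene of the dual-targeted group, the clones and the single-targeted lines equals wildtype. The third line was derived from the dual-targeted and clone means. Tests are the authors' own, with a call at an adjusted p under 0.05. A positive log2 fold change is higher in the group named first, and deposited fold changes are shrunken toward 0.

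Many ribosome biogenesis genes had higher normalized counts of new RNA in dual-targeted lines, and no member was called lower. These are levels relative to other genes, and absolute amounts of RNA could not be read here. Of 56 members, 23 were above wildtype in the authors' deposited table, where 10.8% of all genes tested were higher, and 0 were lower, where 10.1% of all genes were. By DESeq2's unadjusted p under 0.05, 36 members were higher, against 16.7% of all genes, and 0 lower, against 16.0%, in that table. The members' median log2 fold change was 0.36 (range -0.19 to 1.36) per the authors' deposited table, against 0.01 over all genes, and 51 of 56 were above 0. The top of that range was Nol4, which has a mean count of 16.7 and is not known for ribosome biogenesis. Utp3 came next at 1.16. The H/ACA proteins Nhp2 and Nop10 and the processome protein Utp3 stood near a doubling. The median was 0.80 for the H/ACA role, where Dkc1 was at 0.10, and 0.34 for the processome. It was 0.32 for Pol I, 0.27 for C/D, 0.46 for large-subunit factors and 0.47 for abundant nucleolar proteins. A difference between roles was not tested. Members with a mean count of 200 to 3000 were higher at 19 of 48, against 12.9% of 6401 protein-coding genes in that range, a range set after the values were seen.

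**Figure D1:**
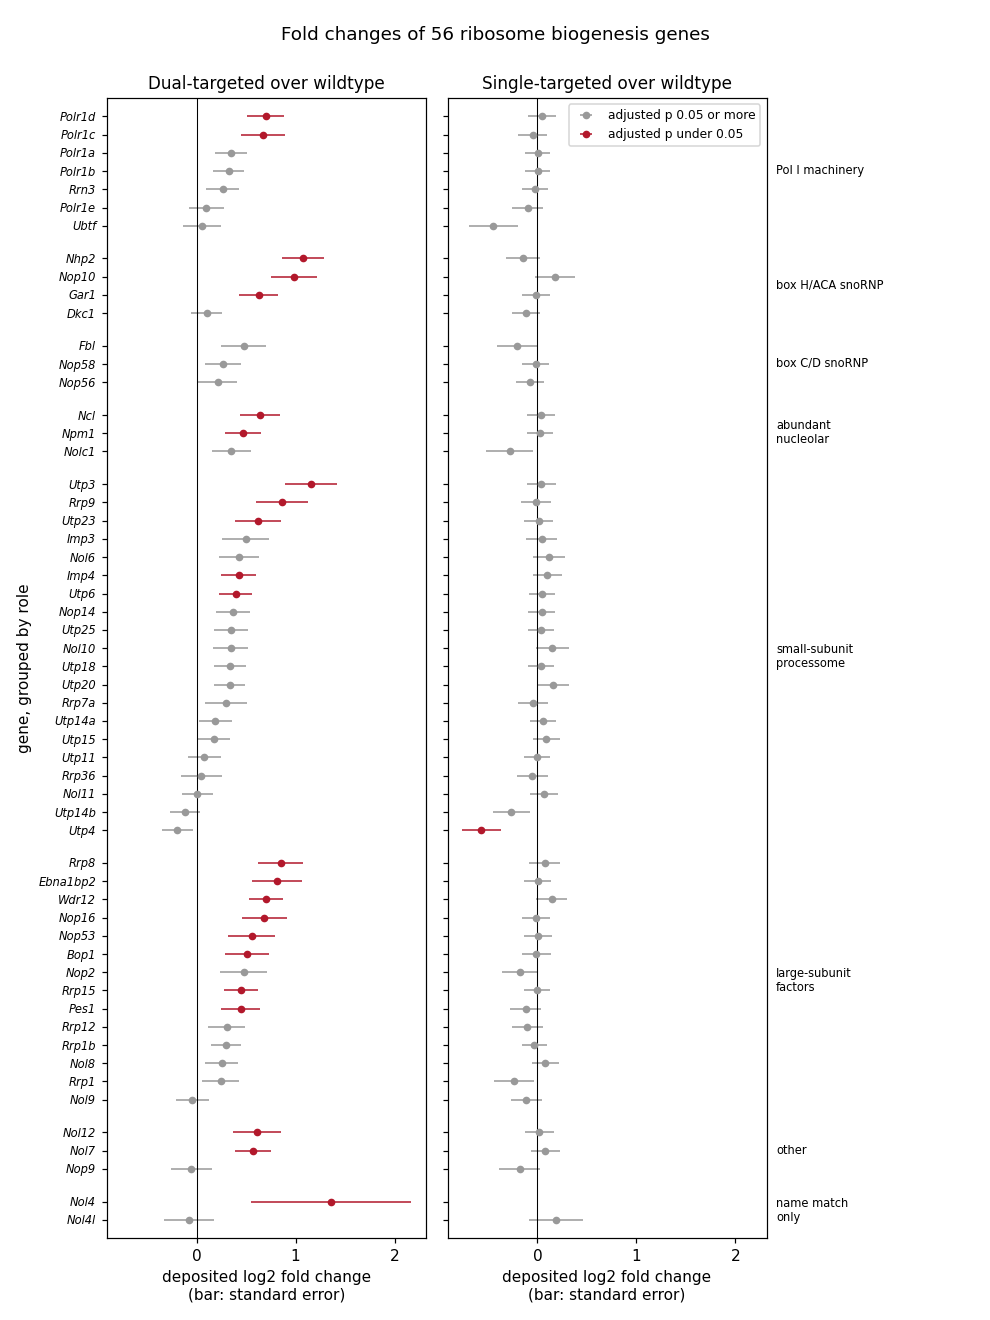
Deposited log2 fold changes (x axis, points, with standard errors as bars) of the 56 members by role, for dual-targeted over wildtype (left panel) and single-targeted over wildtype (right panel); red marks an adjusted p under 0.05. On the left 23 points are red, all to the right of 0, and on the right the single red point is Utp4 at -0.57.

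The plot of fold changes by role shows the left panel shifted to the right of 0 as a whole, with only Utp4, Utp14b, Nol4l, Nop9 and Nol9 below it. The right panel is centred near 0. Values varied within roles: those of the small-subunit processome ran from -0.19 for Utp4 to 1.16 for Utp3 in dual-targeted lines per the authors' deposited table.

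Of 7 members of the Pol I machinery, 2 were higher in dual-targeted lines, against 10.8% of all genes, and 0 lower, against 10.1%. Their median was 0.32 in the authors' deposited table. Polr1d, a small subunit that Pol I shares with Pol III, had rebuilt mean counts of 789 in the clones, 688 in the third line, 488 in single-targeted lines and 449 in wildtype. The clones and the third line lay above both other groups. It was higher by 0.70 ± 0.18 (adjusted p = 5.91e-04) than in wildtype per the authors' deposited table. Its partner subunit Polr1c stood at 903 in the clones, 785 in the line, 480 in single-targeted lines and 513 in wildtype. The authors' deposited table gave Polr1c 0.67 ± 0.22 (adjusted p = 0.00497). The catalytic subunits did not pass, with 0.35 ± 0.16 for Polr1a (adjusted p = 0.0755) and 0.32 ± 0.16 for Polr1b (adjusted p = 0.0998) per the authors' deposited table. Nor did Rrn3, which brings Pol I to the promoter (0.26 ± 0.17, adjusted p = 0.212), or the subunit Polr1e (0.10 ± 0.18, adjusted p = 0.713) per the authors' deposited table. Ubtf, the factor that keeps ribosomal DNA open, was at 0.06 ± 0.19 (adjusted p = 0.853) there in the authors' deposited table, with rebuilt means of 1940 in the clones, 1766 in the line, 1186 in single-targeted lines and 1796 in wildtype.

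Of the 4 proteins of the box H/ACA snoRNP, 3 were higher in dual-targeted lines, against 10.8% of all genes. Their median was 0.80 in the authors' deposited table. Nhp2, a core protein of the particle, had rebuilt mean counts of 991 in the clones, 1059 in the line, 378 in single-targeted lines and 462 in wildtype. The clones and the line lay close together and more than 2-fold above wildtype. In the authors' deposited table Nhp2 was higher by 1.07 ± 0.21 (adjusted p = 2.66e-06). Nop10, the smallest of the core proteins, stood at 596 in the clones, 586 in the line, 375 in single-targeted lines and 285 in wildtype. Its deposited difference was 0.98 ± 0.23 (adjusted p = 6.48e-05) per the authors' deposited table. Gar1, which helps release the modified RNA, reached 935 in the clones and 1032 in the line, against 587 in single-targeted lines and 597 in wildtype, and 0.63 ± 0.20 (adjusted p = 0.00454) per the authors' deposited table. Dkc1, the pseudouridine synthase itself, had 2691 in the clones, 2658 in the line, 2149 in single-targeted lines and 2476 in wildtype. It did not pass, at 0.10 ± 0.16 (adjusted p = 0.669) per the authors' deposited table. The catalytic subunit was thus the one member of the particle without a call against wildtype, and a difference between Dkc1 and its partners was not tested.

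None of the 3 box C/D proteins was called in dual-targeted lines against wildtype (median 0.27 in the authors' deposited table, unadjusted p under 0.05 for 1). Fbl, the ribose methyltransferase fibrillarin, had rebuilt means of 1611 in the clones, 1586 in the line, 831 in single-targeted lines and 1083 in wildtype, and 0.48 ± 0.22 (adjusted p = 0.0578) per the authors' deposited table. The scaffold proteins Nop58 (0.27 ± 0.18, adjusted p = 0.242) and Nop56 (0.21 ± 0.19, adjusted p = 0.395) did not pass in the authors' deposited table. Several members host snoRNAs in their introns: 14 snoRNA genes lay inside 5 members, and 6 of them, in Dkc1, Ncl, Nop56 and Nop58, were measured. None of the 6 was called in dual-targeted lines per the authors' deposited table, from -0.02 ± 0.24 (adjusted p = 0.966) for Snord110 in Nop56 to 0.57 ± 0.35 (adjusted p = 0.091) for Snord82 in Ncl.

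Of the 3 abundant nucleolar proteins, 2 were higher in dual-targeted lines, against 10.8% of all genes. Ncl encodes nucleolin, an RNA-binding protein of the nucleolus, and had rebuilt mean counts of 46474 in the clones, 42312 in the line, 29331 in single-targeted lines and 27505 in wildtype. It was higher by 0.64 ± 0.20 (adjusted p = 0.0043) per the authors' deposited table. Npm1, nucleophosmin, a histone and ribosome chaperone, stood at 12405 in the clones, 11444 in the line, 8778 in single-targeted lines and 8384 in wildtype, and at 0.47 ± 0.18 (adjusted p = 0.0259) per the authors' deposited table. Nolc1, a chaperone of snoRNPs, had 1530 in the clones and 1543 in the line, against 830 in single-targeted lines and 1150 in wildtype. Against wildtype it reached 0.35 ± 0.20 (adjusted p = 0.134) per the authors' deposited table. Per kilobase of annotated exon, the rebuilt wildtype levels were 3146 for Npm1 and 2700 for Ncl, 1149 for Nop56, and 6.43 for Nol4l at the low end. No source used here says whether intron reads were counted, which makes these per-length levels rough.

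**Figure D2:**
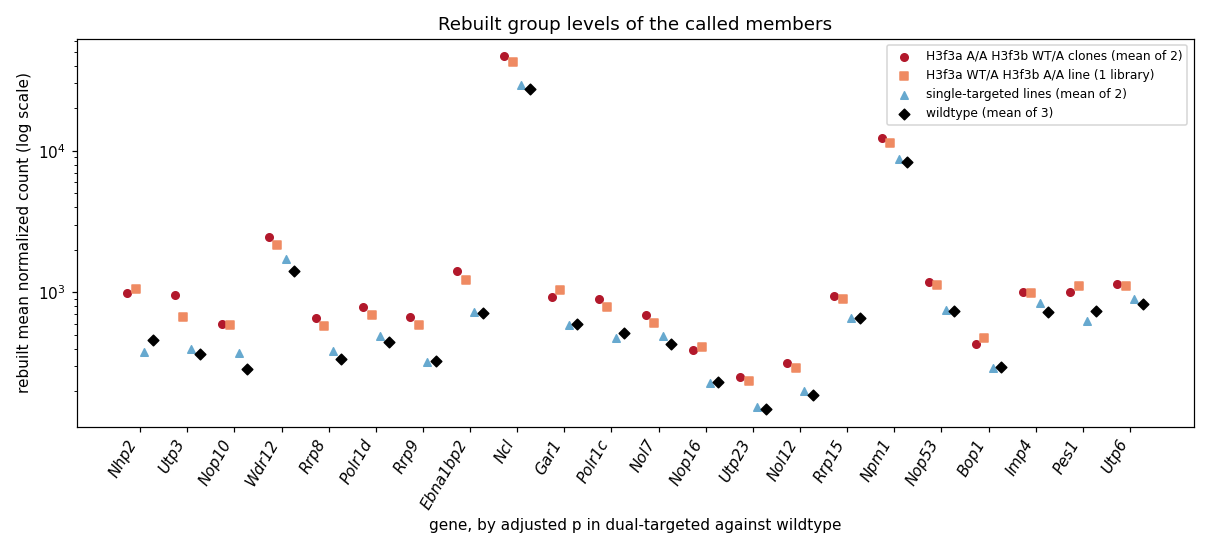
Rebuilt mean normalized counts (y axis, log scale, no error) of the 22 members called higher in dual-targeted lines and listed in all 4 tables, for the clones, the third line, single-targeted lines and wildtype. At every gene shown the clones and the third line lie above the single-targeted and wildtype means, as for Nop10 with 596 in the clones, 586 in the line, 375 in single-targeted lines and 285 in wildtype.

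The plot of rebuilt levels shows that the clones and the line were both above wildtype at 22 of 22 called members with a rebuilt mean. Since these genes were called on the same libraries, that count is a description. Over all 55 members with rebuilt means, both were above at 47, and the median fold over wildtype was 1.37 in the clones (range 0.789 to 2.63), 1.32 in the line (0.873 to 2.29) and 1.01 in single-targeted lines (0.636 to 1.60). The line was above wildtype at 49 of 55 members (89.1%), against 48.5% of all genes counted at 50 or more on average. Single-targeted lines were above at 29 of 55. The line lay below the clones at 35 of the 55, by a median log2 difference of -0.06, with extremes at Utp3 (-0.51) and Nop9 (0.68). Without scaling the tables, the members' median log2 ratio of dual-targeted over wildtype rebuilt means was 0.23 in place of 0.41.

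Of the 20 members of the small-subunit processome, 5 were higher in dual-targeted lines, against 10.8% of all genes, and 0 lower, against 10.1%. Their median was 0.34 in the authors' deposited table. Utp3, a processome protein with a single exon, had rebuilt means of 962 in the clones, 674 in the line, 400 in single-targeted lines and 365 in wildtype. It had the highest fold change of these members, 1.16 ± 0.26 (adjusted p = 2.93e-05) per the authors' deposited table. Rrp9, a protein of the U3 snoRNP at the heart of the processome, stood at 671 in the clones, 584 in the line, 321 in single-targeted lines and 327 in wildtype, and at 0.86 ± 0.26 (adjusted p = 0.00205) per the authors' deposited table. Utp23 had 252 in the clones, 235 in the line, 156 in single-targeted lines and 150 in wildtype, and 0.62 ± 0.23 (adjusted p = 0.0131) per the authors' deposited table. Imp4, another U3 partner (0.42 ± 0.18, adjusted p = 0.0402), and Utp6 (0.39 ± 0.17, adjusted p = 0.046) passed by a narrow margin in the authors' deposited table. Imp3 (0.50 ± 0.24, adjusted p = 0.0602) and Nol6 (0.43 ± 0.20, adjusted p = 0.0621) did not pass in that deposited table of the authors. The long genes Utp20 (0.33 ± 0.16, adjusted p = 0.0823) and Nol10 (0.34 ± 0.17, adjusted p = 0.102) had values near the median in the authors' deposited table without a call. Of the paired copies Utp14a and Utp14b neither was called, with 0.19 ± 0.16 for Utp14a (adjusted p = 0.389) and -0.12 ± 0.15 for Utp14b (adjusted p = 0.594) per the authors' deposited table. Utp14b lies within Acsl3 on the same strand, and Acsl3 was lower (-0.58 ± 0.21, adjusted p = 0.0128) per the authors' deposited table, so reads of this pair may be shared.

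Large-subunit factors had 8 of 14 members higher in dual-targeted lines, against 10.8% of all genes, and 0 lower, against 10.1%. Their median was 0.46 in the authors' deposited table. Wdr12, Pes1 and Bop1 form one complex needed to process the large-subunit RNA, and all 3 were higher. Wdr12 had rebuilt means of 2472 in the clones, 2174 in the line, 1710 in single-targeted lines and 1413 in wildtype, with 0.70 ± 0.17 (adjusted p = 2.62e-04) per the authors' deposited table. Pes1 stood at 1014 in the clones, 1116 in the line, 628 in single-targeted lines and 736 in wildtype, with 0.44 ± 0.19 (adjusted p = 0.0454) per the authors' deposited table. Bop1 stood at 433 in the clones, 477 in the line, 290 in single-targeted lines and 296 in wildtype, with 0.51 ± 0.22 (adjusted p = 0.0395) per the authors' deposited table. Pes1 and Bop1 thus sat nearer the threshold than Wdr12.

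Rrp8, a methyltransferase that modifies a base of the large-subunit RNA, had 663 in the clones, 575 in the line, 385 in single-targeted lines and 335 in wildtype. The authors' deposited table put it at 0.85 ± 0.22 (adjusted p = 4.27e-04). Ebna1bp2, an assembly factor, had 1419 in the clones, 1229 in the line, 728 in single-targeted lines and 720 in wildtype, and 0.82 ± 0.25 (adjusted p = 0.00239) per the authors' deposited table. For both, single-targeted and wildtype means were close and the dual-targeted means stood clear of them. Nop16 (0.68 ± 0.23, adjusted p = 0.00577), Nop53 (0.56 ± 0.23, adjusted p = 0.0299), which guides late trimming of the large-subunit RNA, and Rrp15 (0.45 ± 0.17, adjusted p = 0.0214) were also higher in the authors' deposited table. Nop2, a cytosine methyltransferase of the large-subunit RNA, did not pass at 0.47 ± 0.24 (adjusted p = 0.0676) per the authors' deposited table. Rrp12, Rrp1b, Nol8 and Rrp1 lay between 0.24 and 0.30 without a call in the authors' deposited table, and Nol9, a kinase of RNA ends in this pathway, was at -0.04 ± 0.16 (adjusted p = 0.875).

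Of the remaining members, Nol7 (0.57 ± 0.18, adjusted p = 0.00511) and Nol12 (0.61 ± 0.24, adjusted p = 0.0195) were higher in the authors' deposited table. Nop9 was not called, at -0.05 ± 0.20 (adjusted p = 0.871) per the authors' deposited table, and its rebuilt means were 451 in the clones, 724 in the line, 437 in single-targeted lines and 571 in wildtype. Nop9 lies on chromosome 14, where the 397 genes counted at 50 or more on average had a median log2 fold change of -0.51 in the clones in the authors' deposited table. The part of that shift in the value of Nop9 was not tested. Nol4, a gene known from neural tissue with a mean count of 16.7, was called at 1.36 ± 0.81 (adjusted p = 0.0266) per the authors' deposited table. It is one of the members that share letters with the rule and no known role here, and without Nol4 and Nol4l 22 members were called.

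The clones were also compared with wildtype on their own, which leaves the third line out. Of 55 members, 18 were higher in the authors' deposited table, where 9.05% of all genes tested were, and 0 were lower, where 10.3% of all genes were (unadjusted p under 0.05 for 32 higher, against 14.8% of all genes, and 0 lower, against 15.6%). The members' median was 0.39 there. Of 22 members called with all 3 lines and listed in both tables, 17 were called in the clones. Imp4, Nop53, Pes1, Utp6 and Bop1 were not, with adjusted p of 0.0918, 0.0618, 0.14, 0.0903 and 0.121 in the authors' deposited table. Nol6, a processome protein, was called in the clones (0.56 ± 0.22, adjusted p = 0.0239) per the authors' deposited table, with rebuilt means of 1017 in the clones, 739 in the line, 789 in single-targeted lines and 656 in wildtype. Utp3 had the highest deposited value of members in the clones, 1.30 ± 0.28 (adjusted p = 1.90e-05) per the authors' deposited table. The 2 comparisons share the clones and the wildtype libraries.

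In single-targeted lines few of these genes were called against wildtype. Of 55 members, 0 were higher in the authors' deposited table, where 1.49% of all genes tested were, and 1 was lower, where 1.47% of all genes were. By DESeq2's unadjusted p under 0.05, 0 members were higher, against 5.92% of all genes, and 5 lower, against 6.5%. The members' median log2 fold change was 0.00 (range -0.57 to 0.19) per the authors' deposited table, and 28 of 55 were above 0. Utp4, a processome protein known as cirhin, had rebuilt mean counts of 967 in single-targeted lines, 1280 in the clones, 1327 in the third line and 1520 in wildtype. The single-targeted mean was the lowest of the 4. In single-targeted lines it fell by 0.57 ± 0.19 on the log2 scale (adjusted p = 0.0142) per the authors' deposited table, while dual-targeted lines were at -0.19 ± 0.15 (adjusted p = 0.355). Utp4 lies on chromosome 8. The 649 genes counted there at 50 or more on average had a median of -0.21 in single-targeted lines. Of these, 12.8% were called lower in the authors' deposited table. In dual-targeted lines the median of 626 such genes was -0.32, and 36.7% were called lower per the authors' deposited table. The shift was thus not particular to single-targeted lines. The part of that chromosome-wide shift in the value of Utp4 was not tested. Ubtf had the next lowest value, -0.45 ± 0.25 (adjusted p = 0.109), in the authors' deposited table without a call. The 2 single-targeted libraries could not be read apart here.

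Dual-targeted lines were set directly against single-targeted lines to test the difference between 3 and 2 mutant alleles, with different lines and wildtype alleles on each side. Of 55 members with an adjusted p, 15 were higher in dual-targeted lines in the table the authors deposited, where 4.37% of all genes tested were, and 0 were lower, where 2.69% of all genes were (unadjusted p under 0.05 for 31 higher, against 11.1% of all genes, and 1 lower, against 8.87%). The median log2 difference was 0.32, and 54 of 56 members were above 0. Nhp2 differed most, by 1.35 ± 0.27 (adjusted p = 4.40e-05) per the authors' deposited table. Of the other H/ACA proteins, Gar1 was higher by 0.64 ± 0.21 (adjusted p = 0.00959), while Nop10 (0.49 ± 0.28, adjusted p = 0.0928) did not pass in the authors' deposited table. Polr1c (0.72 ± 0.27, adjusted p = 0.0179) and Polr1d (0.55 ± 0.20, adjusted p = 0.0208) were higher in the authors' deposited table, as in the comparison with wildtype. Utp3 (0.98 ± 0.31, adjusted p = 0.00635) and Rrp9 (0.85 ± 0.31, adjusted p = 0.0142) were the 2 processome members called in the authors' deposited table.

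Fbl, Nolc1, Nop2 and Rrp1 were higher than in single-targeted lines without a call against wildtype. Their values lay below 0 in single-targeted lines and above 0 in dual-targeted lines, neither called. Fbl was at 0.82 ± 0.28 (adjusted p = 0.0104) over single-targeted lines in the authors' deposited table, with -0.20 ± 0.20 for single-targeted lines over wildtype. Nolc1 was at 0.81 ± 0.23 (adjusted p = 0.00333) in the same deposited table of the authors, with -0.28 ± 0.24 for single-targeted lines over wildtype. Nop2 had 0.72 ± 0.33 (adjusted p = 0.0338) and Rrp1, a large-subunit factor, 0.59 ± 0.23 (adjusted p = 0.0248) over single-targeted lines in the authors' deposited table. Ncl (0.52 ± 0.22, adjusted p = 0.0342), Pes1 (0.64 ± 0.24, adjusted p = 0.0198), Ebna1bp2 (0.70 ± 0.35, adjusted p = 0.0431), Nop16 (0.62 ± 0.30, adjusted p = 0.0475) and Rrp15 (0.43 ± 0.18, adjusted p = 0.0446) completed the list in the authors' deposited table. Just short of the threshold were Ubtf (0.54 ± 0.25, adjusted p = 0.0511), Wdr12 (0.41 ± 0.17, adjusted p = 0.0524) and Rrp12 (0.48 ± 0.22, adjusted p = 0.0576) per the authors' deposited table of this comparison. By role, 6 of 14 large-subunit factors, 2 of 20 processome members, 2 of 7 Pol I members, 2 of 4 H/ACA, 1 of 3 C/D and 2 of 3 abundant nucleolar members were called, all higher, against 4.37% of all genes called higher. These counts are small. With the trend on gene span taken out, 6 of the 15 calls were left, as given with the spans.

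**Figure D3:**
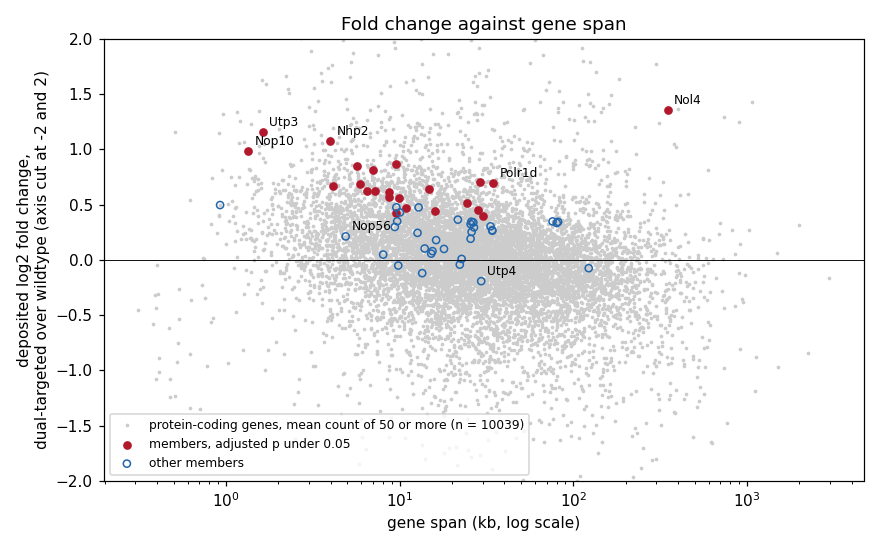
Deposited log2 fold change of dual-targeted over wildtype (y axis, cut at -2 and 2) against gene span (x axis, kb, log scale) for members, red where called and open blue where not, over 10039 protein-coding genes in grey. The called members have a median span of 9.46 kb and the other 33 one of 21.6 kb; the longest called members are Polr1d at 34.5 kb and Nol4 at 348 kb.

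Members were short genes, and fold change in dual-targeted lines fell with span among protein-coding genes counted at 50 or more on average. The median span was 14.9 kb for members, 9.46 kb for the 23 called and 21.6 kb for the other 33, against 26.2 kb for 10039 protein-coding genes counted at 50 or more on average. Spearman's rho between span and the log2 fold change in dual-targeted lines was -0.39 across the 56 members and -0.29 across the protein-coding genes; genes share their libraries and do not replicate each other. In single-targeted lines it was 0.16 across 55 members. Exons made up a median 29.6% of a member's span, against 18.9% for the protein-coding genes.

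Within bins of span set after the values were seen, members counted at 50 or more on average were higher in dual-targeted lines more often than all genes counted so. Under 5 kb, 4 of 6 members were higher, against 17.2% of all genes. From 5 to 10 kb, 10 of 15 were higher, against 19.3%. From 10 to 30 kb, 6 of 25 were higher, against 13.4%, and over 30 kb, 2 of 9 were higher, against 7.3%, with Nol4 left out of this bin because its mean count is under 50. The members' counts in each bin are small, and no test of the difference was made. With the trend on span taken out, 21 members were higher in dual-targeted lines and 0 lower. The shares of all genes called after this step are not given here, for this comparison or for that with single-targeted lines. Counts after it therefore stand without a background. Imp4, Nop53, Pes1, Npm1 and Nol12 then lost their call while their log2 fold changes stayed at 0.33, 0.46, 0.40, 0.39 and 0.51, and the long genes Polr1a, Utp20 and Nol10 gained one (adjusted p = 0.0279, 0.0298 and 0.0376). Over single-targeted lines, 6 of 15 calls were left with the trend taken out, those of Nhp2, Utp3, Nolc1, Polr1d, Gar1 and Fbl. The other 9 had log2 differences less the trend of 0.79 for Rrp9, 0.68 for Polr1c, 0.67 for Nop2, 0.63 for Ebna1bp2, 0.60 for Pes1, 0.56 for Nop16, 0.54 for Rrp1, 0.48 for Ncl and 0.43 for Rrp15, with adjusted p of 0.0521 to 0.165. In the authors' deposited table these 9 ran from 0.43 to 0.85.

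Annotated neighbours overlap some members. On the other strand, 22 members overlapped a gene, 10 of the 23 called among them, and 11 of the 23 had no overlapping gene at all. No source used here says whether counting used strand, and reads of such pairs may be mixed. Some partners went the other way: Mroh1, which overlaps the end of Bop1 (-1.49 ± 0.21, adjusted p = 1.19e-11), and Carf beside Wdr12 (-0.80 ± 0.22, adjusted p = 5.66e-04) were lower in dual-targeted lines per the authors' deposited table. Polr1e, which was not called, overlaps Fbxo10 (-0.97 ± 0.29, adjusted p = 0.00134 in the authors' deposited table).

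**Figure D4:**
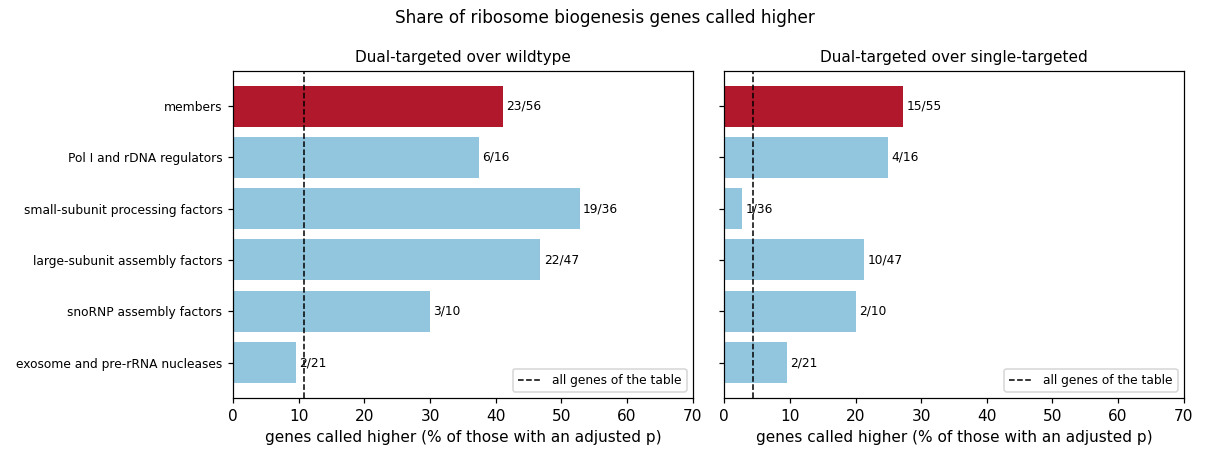
Percent of genes called higher (bars, labelled with counts) among the 56 members and among 5 lists of ribosome biogenesis genes outside the symbol rule, for dual-targeted over wildtype (left) and dual-targeted over single-targeted (right); dashed lines mark all genes of each table. Large-subunit factors stand at 22 of 47 on the left and 10 of 47 on the right, and small-subunit factors at 19 of 36 and 1 of 36.

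Genes of the same pathway that the symbol rule leaves out were also more often higher than lower in dual-targeted lines. Of 130 such genes in 5 lists, 52 were higher in dual-targeted lines, against 10.8% of all genes, and 0 lower, against 10.1% (median 0.39; unadjusted p under 0.05 for 75 higher and 0 lower), in the authors' deposited table. In single-targeted lines 0 were higher, against 1.49% of all genes, and 1 was lower, against 1.47%. Over single-targeted lines, 19 were higher in dual-targeted lines, against 4.37% of all genes. The plot of the share called higher places all lists but one to the right of the line for all genes on the left panel.

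Small-subunit processing factors outside the rule, early and late ones together, were higher at 19 of 36 in dual-targeted lines (median 0.43). Pno1, which works late in making the small subunit (1.07 ± 0.20, adjusted p = 7.62e-07), the processome protein Wdr3 (0.75 ± 0.18, adjusted p = 1.80e-04) and Dimt1, an adenosine dimethyltransferase of the small-subunit RNA (0.84 ± 0.22, adjusted p = 4.25e-04), led them in the authors' deposited table. Over single-targeted lines, 1 of the 36 was called higher (2.78%), against 4.37% of all genes, so this list showed no excess there. Large-subunit factors were higher at 22 of 47 against wildtype, led by Wdr74 (0.99 ± 0.22, adjusted p = 3.04e-05), Eif6, which keeps the subunits apart (0.85 ± 0.20, adjusted p = 1.06e-04), and the SUMO protease Senp3 (0.71 ± 0.18, adjusted p = 2.79e-04) per the authors' deposited table. Of Pol I genes outside the rule, 6 of 16 were higher, led by Polr2k, a subunit shared by the RNA polymerases (1.21 ± 0.33, adjusted p = 5.07e-04), Taf1d (0.78 ± 0.21, adjusted p = 8.35e-04) and the helicase Ddx21 (0.57 ± 0.17, adjusted p = 0.00228) per the authors' deposited table. SnoRNP assembly factors were higher at 3 of 10 and these were Znhit6 (0.91 ± 0.23, adjusted p = 2.79e-04) and the paired ATPases Ruvbl2 (0.84 ± 0.23, adjusted p = 5.77e-04) and Ruvbl1 (0.71 ± 0.20, adjusted p = 0.00112) per the authors' deposited table. The exosome and pre-rRNA nucleases stood near the background with 2 of 21 higher, Exosc4 (0.83 ± 0.28, adjusted p = 0.00476) and Exosc1 (0.42 ± 0.18, adjusted p = 0.0452) per the authors' deposited table. In single-targeted lines the 1 gene called was Nob1, the nuclease that makes the last cut of the small-subunit RNA, which was lower (-0.73 ± 0.23, adjusted p = 0.00695) per the authors' deposited table and lies on chromosome 8, as Utp4 does.

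Of 10 genes of the MYC family, 1 was higher and 2 were lower in dual-targeted lines, where 10.8% and 10.1% of all genes were, so the counts lay near the background. Myc itself was higher by 1.37 ± 0.31 (adjusted p = 2.43e-05) over wildtype and by 1.22 ± 0.48 (adjusted p = 0.0152) over single-targeted lines in the authors' deposited tables. Without the third line, Myc was still higher than in wildtype, by 1.05 ± 0.33 in the clones (adjusted p = 0.00234) per the authors' deposited table. The MYC antagonists Mxi1 (-0.48 ± 0.20, adjusted p = 0.0363) and Mga (-0.41 ± 0.18, adjusted p = 0.0474) were lower per the authors' deposited table, and without the third line neither was called (adjusted p = 0.13 and 0.131). The antagonists Mnt (-0.32 ± 0.19, adjusted p = 0.153), Mxd4 (0.45 ± 0.34, adjusted p = 0.172), Mxd1 (0.07 ± 0.21, adjusted p = 0.816) and Mxd3 (0.04 ± 0.26, adjusted p = 0.914) went both ways in dual-targeted lines without a call in the authors' deposited table. Mycn, with a mean count of 1069 against 273 for Myc, was not called, at 0.09 ± 0.34 (adjusted p = 0.766) in dual-targeted lines and -0.37 ± 0.26 (adjusted p = 0.216) in the clones per the authors' deposited tables. In single-targeted lines Myc stood at -0.00 ± 0.16 (adjusted p = 0.993) per the authors' deposited table. Whether the level of Myc bears on the members was not tested.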

How the data were processed

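TT-seq libraries of 8 E14 cultures were grouped by genotype as labelled. The members, gene lists and alternatives were chosen with earlier results of these data known. Reads were processed with STAR, SAMtools, featureCounts, DESeq2 and deepTools per the submitters' processing notes, which name the builds mm10 and GRCm38.p6 and no tool versions. The deposited files are 4 tables of the authors' comparisons, normalized one by one. They give a mean of normalized counts (a signal over the libraries compared), per the file headers. The authors deposited log2 fold changes with standard errors, read here as shrunken: at 100% of called genes the fold over its error was below what p implies. The p-values and adjusted p-values are the authors', per the file headers, and an empty adjusted p was kept empty. Of 16498, 16255, 16149 and 16254 genes, 16493, 15030, 13141 and 15640 had an adjusted p, for the tables of dual-targeted lines over wildtype, single-targeted lines over wildtype, dual-targeted over single-targeted lines, and clones over wildtype in turn. The median mean count was 144, 153, 142 and 157. Library depth is unknown, so precision enters only through the deposited standard errors, and p-values measure the spread between wildtype replicates and between mutant lines.

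Group means were rebuilt by subtraction over 15571 genes in all tables (2 came out below 0). Scales of 0.984, 1.06 and 0.957 set the median gene of the dual-targeted group, the single-targeted lines and the clones equal to wildtype. The third line was then derived from the dual-targeted and clone means and was not scaled on its own. The sign of the rebuilt differences matched the deposited fold change for 100% of the called genes checked, which fixed its direction. The trend on gene span was a lowess curve (span 0.3) of signed z, with Benjamini-Hochberg adjustment again. Both steps were run on simulated data built to meet their assumptions, so that run checks the computation and not the assumptions. The rebuilt level of the third line was not among the values checked. Positions came from GENCODE vM21 (GRCm38), except those of Utp25, and promoters from RefSeq GRCm38.p6, matched by symbol for 46 of 56 members. Any member could be named; members called in any comparison were given in full up to 30, and outside genes as up to 3 per list by adjusted p in dual-targeted lines, with Nob1, the sole outside gene called in single-targeted lines, and the overlapping genes named after their values were seen. No set test was run. Computations used statsmodels 0.14.6, scipy 1.17.1, pandas 2.3.3, numpy 2.4.6 and matplotlib 3.10.9 under Python 3.11.15.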

Additional observations from a re-analysis of the deposited data

Results flagged for a closer look

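The direct comparison of dual-targeted with single-targeted lines found 15 members whose level differed between these mutant groups, all higher in dual-targeted lines, by deposited log2 values in the authors' deposited table. Nhp2 differed by 1.35, Utp3 by 0.98, Rrp9 by 0.85, Fbl by 0.82 and Nolc1 by 0.81. Polr1c and Nop2 each differed by 0.72, Ebna1bp2 by 0.70, Gar1 and Pes1 each by 0.64, Nop16 by 0.62 and Rrp1 by 0.59. Polr1d differed by 0.55, Ncl by 0.52 and Rrp15 by 0.43. Standard errors and adjusted p-values of these 15 are given above. With the trend on gene span taken out, 6 of the 15 were called, and Rrp9, Polr1c, Nop2, Ebna1bp2, Pes1, Nop16, Rrp1, Ncl and Rrp15 were not.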

How the results depend on the processing

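Most counts and medians stayed within 1.5 times or 1 standard error of the value given, in 52 of 59 recomputations, and no value changed direction. At an adjusted p under 0.01, 13 members were called in dual-targeted lines against wildtype in place of 23, 10 in the clones in place of 18, 0 in single-targeted lines in place of 1 and 4 over single-targeted lines in place of 15. At under 0.1, 25 were called over single-targeted lines. With the trend on gene span taken out, 6 were called over single-targeted lines. The shares of all genes at 0.01, at 0.1 or with the trend taken out are not given here. These counts therefore do not show whether members were called more often than all genes. Without chromosomes 8 and 14, 0 were called in single-targeted lines, since Utp4 is then left out. Leaving out the third line (H3f3a WT/A, H3f3b A/A) gave 18 calls and a median of 0.39 in dual-targeted lines, the one library that the tables allow to be left out. Single calls were lost when the span trend was taken out at 5 of 23 members against wildtype, 9 of 15 over single-targeted lines and 7 of 18 in the clones, and when p was adjusted over every gene with a p at 3 of 15 over single-targeted lines (Rrp15, Ebna1bp2 and Nop16). No paired analysis was possible because the tables hold no values per library, and leaving out each other library was not run for the same reason. Rebuilt means have no error and move with the scaling, 0.41 against 0.23 for the members' median log2 ratio.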
